A study of Homo sapiens with 10 samples.

Results

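ICOS, CTLA4, IL2RA and IL2RB encode a costimulatory receptor, an inhibitory checkpoint receptor and the alpha and beta chains of the interleukin 2 receptor of T cells. They were followed through every list of m6A peaks from V16A cells, a line of castration-resistant prostate cancer. The rows that carried these 4 gene names were taken from 7 lists, which together held 5000 gene names. That gave 59 of 26273 listed peaks. The genes had been chosen by their called peaks in these lists, so their presence, number and position are given as a description, with no test. In addition, an exact test of 2 libraries against 2 cannot give a p below 0.333.

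m6A is a methyl mark on adenosines of RNA, mapped here by pulling down RNA fragments with an antibody against it (MeRIP-seq). Pulled-down libraries came from V16A cells in hypoxia (2), from V16A cells in normoxia (2) and from 1 V16A sample labelled EU with a time of 40 min. EU is read here as ethynyl uridine, which marks newly made RNA, and no oxygen condition is labelled for that sample. All 5 came from this 1 line, and the labels give neither the oxygen level nor the length of hypoxia, nor whether replicates were separate cultures. Each library had a peak list of its own, and each condition had 1 more, called the condition list below. A list holds the stretches of transcript where the authors called enrichment, so a missing peak shows neither missing RNA nor missing methylation.

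T cells need a signal from a costimulatory receptor besides that of the antigen receptor. CD28 gives it on resting T cells, and ICOS, induced on activation, gives it later on binding ICOS ligand. CTLA4, of the same family, competes with CD28 for its ligands and restrains the response. Interleukin 2 then drives growth through a receptor of the alpha chain IL2RA, which raises affinity, and the signalling chains IL2RB and IL2RG. These receptors are known from lymphocytes and are not typical of prostate epithelium, so marker genes of both tissues were looked up in the same lists.

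The lists differed in length and in the cell type markers they held. The hypoxia libraries had 2879 and 6621 peaks, the normoxia libraries 212 and 1563, and the EU library 5044. Of 13 T and NK cell markers, 9 had a peak in hypoxia replicate 1, 10 in hypoxia replicate 2, 5 and 0 in normoxia replicates 1 and 2, and 9 in EU. Those with a peak in both hypoxia libraries were CD2, CD3D, CD3E, CD5, TRAC, NKG7, GZMB, PRF1 and GNLY, while CD4 had none in any list. Of 11 prostate epithelium markers the counts were 1, 3, 0, 4 and 7 in the same order. HOXB13, a prostate homeobox factor, had 1 peak in hypoxia replicate 2, 3 in normoxia replicate 2 and 1 in EU, and KRT8, KRT18, CDH1 and FOLH1 had none in any list. No B cell marker (of 4) and no myeloid marker (of 5) had a peak in a library; CD68 had 2 in the hypoxia condition list. Normoxia replicate 1 thus held T and NK cell markers and no prostate marker, and normoxia replicate 2 the reverse. The receptors' peaks lay in the libraries that held T and NK cell markers, and the part of these markers' source in the receptor peaks was not tested. From such lists, the number of cells of a type, RNA per cell, methylation and the length of a list cannot be told apart, and none was tested.

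**Figure D1:**
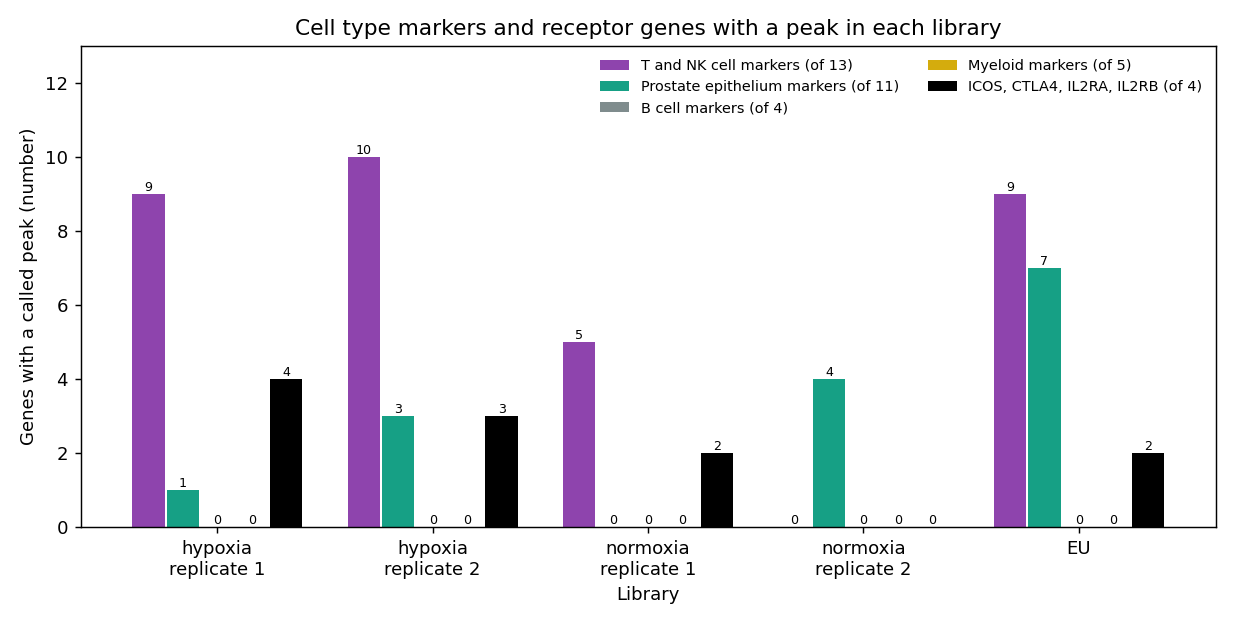
Genes with a called peak in each pulled-down library (vertical axis, number of genes), for 4 marker lists and the 4 receptor genes. Normoxia replicate 2 had 4 of 11 prostate markers and none of the 13 T and NK cell markers or of the 4 receptors.

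The 4 genes fell into 3 patterns over the libraries. ICOS had a peak in both hypoxia libraries and in no other, CTLA4 in hypoxia replicate 1 alone, and IL2RA and IL2RB in both hypoxia libraries, normoxia replicate 1 and EU. Both hypoxia libraries thus had a peak in 3 members, where 21.1% of genes met this. One gene, ICOS, was therefore hypoxia-only, meaning a peak in both hypoxia libraries and in neither normoxia library, against a background of 15.3% of the 3226 gene names that those 4 libraries listed between them. IL2RB was like IL2RA in having normoxia replicate 1 peaks. The pattern of both IL2 receptor chains (both hypoxia libraries and normoxia replicate 1, not normoxia replicate 2) was shared by 46 genes, 1.43% of the same 3226, and that of CTLA4 by 482 (14.9%). By single library, hypoxia replicate 1 had all 4 members (39% of the 3226 genes), hypoxia replicate 2 had 3 (66.7%), normoxia replicate 1 had 2 (4.31%), normoxia replicate 2 had 0 (27.8%) and EU had 2 (39.9%). The rule rests on the same calls, so nothing is read from these counts. Normoxia replicate 1 decided the state of both interleukin 2 receptor chains: without it, ICOS, IL2RA and IL2RB were hypoxia-only.

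**Figure D2:**
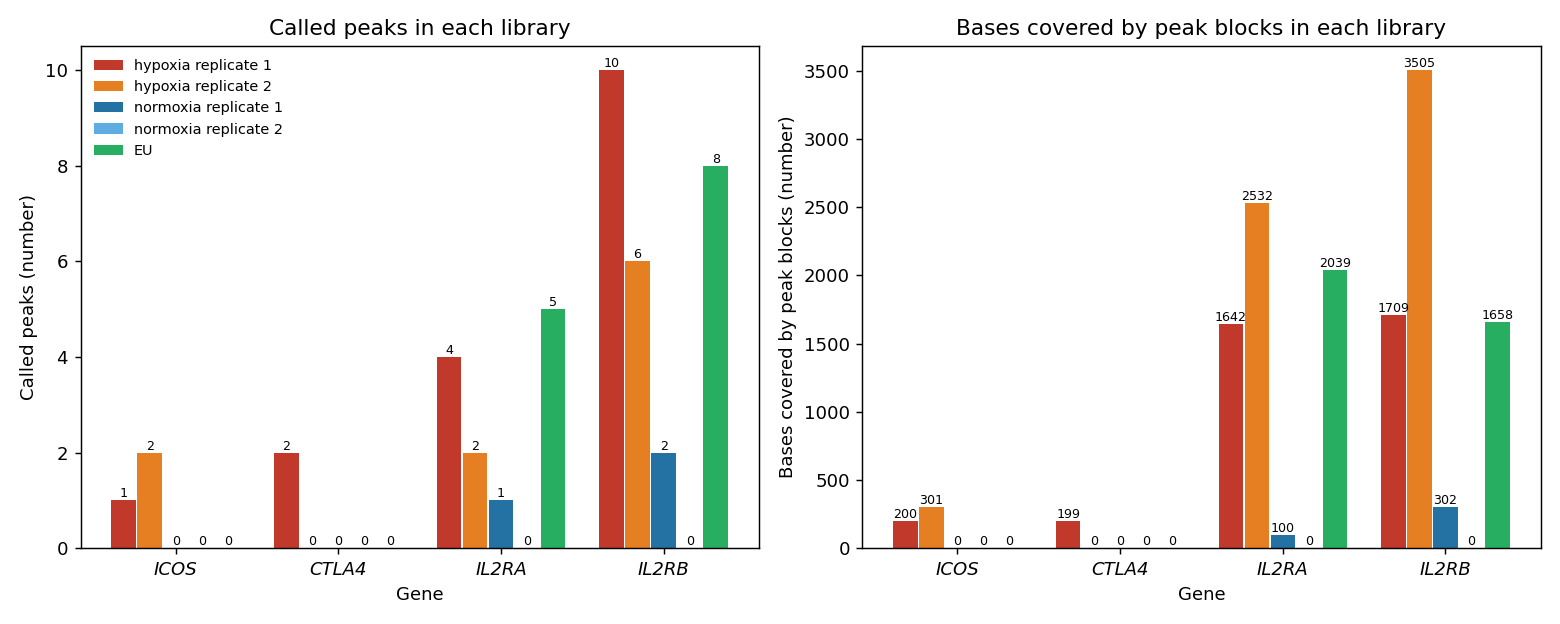
Called peaks (left) and bases covered by their blocks (right) for each receptor gene, 1 bar per library, with the number above each bar. IL2RB reached 10 peaks in hypoxia replicate 1 and 3505 bases in hypoxia replicate 2, whereas ICOS and CTLA4 stayed at 301 bases or fewer, and normoxia replicate 2 is at 0 for all 4.

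ICOS, the inducible costimulator, lies on the plus strand at chr2:203936763-203961577 (RefSeq, GRCh38.p14). It had 1 peak in hypoxia replicate 1, 2 in hypoxia replicate 2, 0 in EU, 0 in normoxia replicate 1 and 0 in normoxia replicate 2. The peak of hypoxia replicate 1 was a single block of 200 bases at chr2:203959981-203960180 (hg38). Those of hypoxia replicate 2 were single blocks of 101 and 200 bases at chr2:203959781-203959881 and chr2:203960031-203960230. The replicates shared 150 bases, which is 75.0% of the bases covered in hypoxia replicate 1 and 49.8% of those in hypoxia replicate 2. All of these blocks began within the last 1796 bases of the gene and ended 1347 bases or more before its 3′ end, so ICOS had called signal near its end and none upstream. The peaks were of middling rank, 999th of 2879 by the authors' p (7.1e-06) in hypoxia replicate 1 and 3448th of 6621 (1.9e-05) in hypoxia replicate 2. When each list was cut to the 50% of peaks of smallest p, those in hypoxia replicate 2 were lost and ICOS was no longer hypoxia-only.

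The hypoxia condition list named 3 of the 4 genes, all but CTLA4 (63% of the 3226 genes had a peak there), and the normoxia one 2, IL2RA and IL2RB (27.9%). The former had 3 ICOS peaks and the latter 0. Of the 3, chr2:203959781-203959881 was identical to a peak of hypoxia replicate 2, and chr2:203959981-203960230 spanned the peaks of both replicates. The third, chr2:203961278-203961427, ended 150 bases before the gene's end and overlapped no peak of either hypoxia library. It had a p of 3.1e-05, against 5.1e-06 for the other two.

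CTLA4, the checkpoint receptor that is the target of ipilimumab, lies 62797 bases upstream of ICOS on the same strand, at chr2:203867771-203873965. It had 2 peaks in hypoxia replicate 1, 0 in hypoxia replicate 2, 0 in EU, 0 in normoxia replicate 1 and 0 in normoxia replicate 2. Both condition lists also had 0. The first peak joined blocks of 29 bases at chr2:203871459-203871487 and 70 bases at chr2:203872708-203872777, and the second was a block of 100 bases at chr2:203872925-203873024. The list joins the 2 blocks into 1 peak across a gap; whether reads spanned that gap was not tested. Both had a p of 0.00015 and stood 2372nd and 2373rd among the 2879 peaks of their list. CTLA4 was thus the member with the least repeated signal: 1 library of 5, 199 bases, and no peak in the list of its own condition. Of the 576 genes with a peak in hypoxia replicate 1 and not in replicate 2, 210 (36.5%) did have a peak in the hypoxia condition list.

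**Figure D3:**
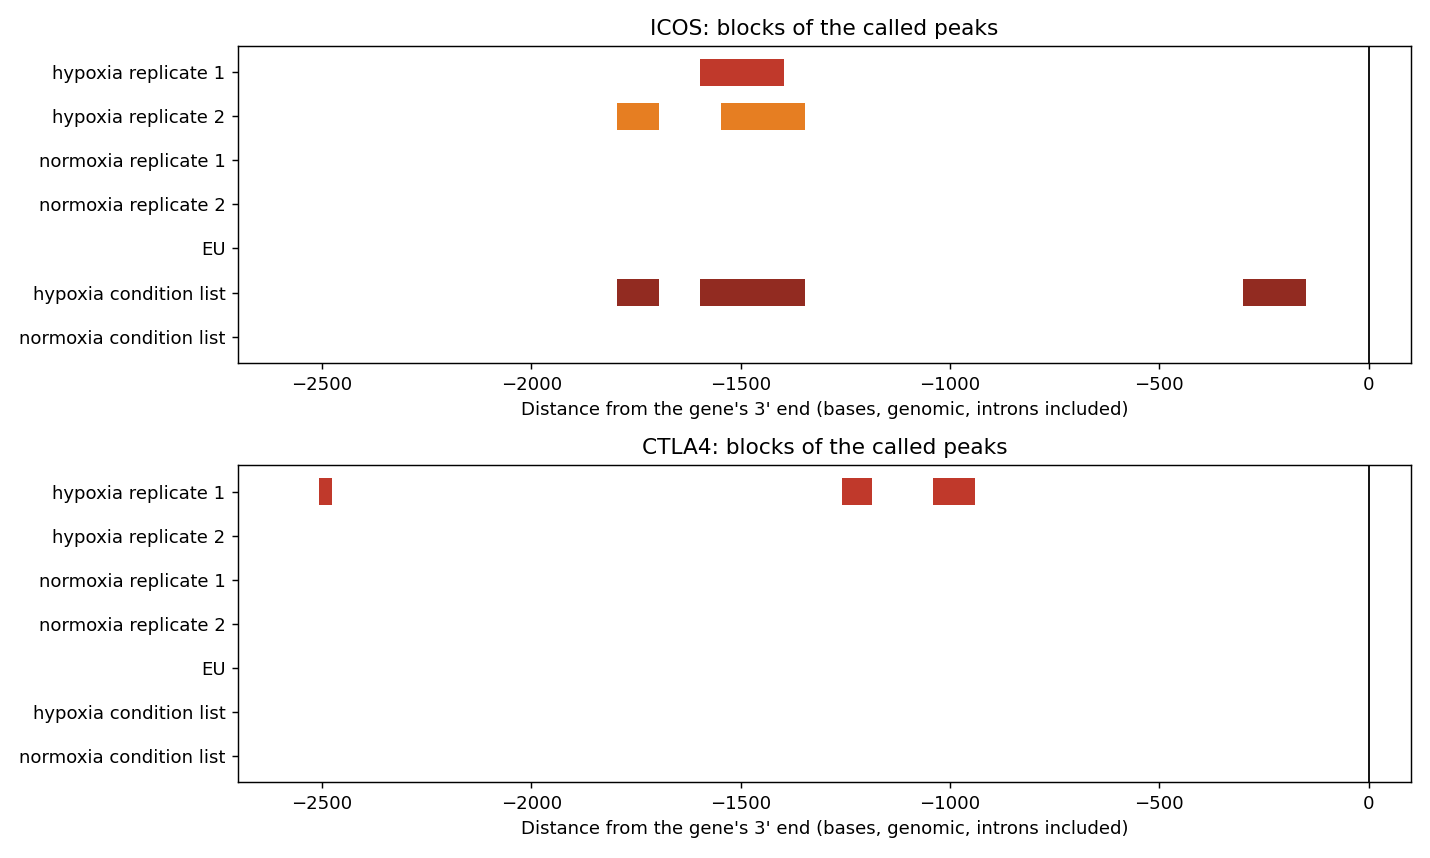
Blocks of the called ICOS and CTLA4 peaks in the 7 lists, by genomic distance from the gene's 3′ end (0, vertical line; negative is upstream). ICOS blocks of both hypoxia replicates overlap between 1546 and 1397 bases before the end, while CTLA4 has blocks in hypoxia replicate 1 alone.

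IL2RA encodes the alpha chain, CD25, and lies on the minus strand at chr10:6010689-6062367. It had 4 peaks in hypoxia replicate 1, 2 in hypoxia replicate 2, 5 in EU, 1 in normoxia replicate 1 and 0 in normoxia replicate 2. The number of peaks hides their extent, since the 2 peaks of hypoxia replicate 2 were wider. Their blocks covered 1642 bases in hypoxia replicate 1, 2532 in hypoxia replicate 2, 100 in normoxia replicate 1 and 2039 in EU. In hypoxia replicate 2 a peak of 1291 bases at chr10:6011185-6012475 was followed by one of 8 blocks that ran from chr10:6012574 to 6062275, from 92 bases after the RefSeq start of the gene to its last part. By covered bases IL2RA stood 14th of 1258 genes in hypoxia replicate 1, 38th of 2151 in hypoxia replicate 2 and 25th of 2389 in EU, but 135th of 139 in normoxia replicate 1. Such a standing counts every gene with at least as many covered bases, so genes tied with the receptor are included. Transcript length, which limits covered bases, was not taken out of these ranks. Its best p stood 121st in hypoxia replicate 1 (4.6e-07), 14th in hypoxia replicate 2 (5.2e-10), 136th of 212 in normoxia replicate 1 (1.1e-05) and 37th in EU (4.1e-09).

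All IL2RA blocks of the 7 lists merged into 8 separate stretches with 2680 bases, numbered from the 5′ end. Hypoxia replicate 2 and EU had a peak in all 8, hypoxia replicate 1 in 7 and normoxia replicate 1 in 1. Every covered base of hypoxia replicate 1 was also covered in hypoxia replicate 2 (1642 of 1642). The single normoxia peak, chr10:6025866-6025965, lay inside the second stretch, and all of its 100 bases were covered in both hypoxia libraries and in EU. This was the only IL2RA stretch with a peak in 4 libraries, and the EU peak there had the same 3′ edge as the normoxia one, at position 6025866. Between 56.1% and 63.7% of the covered bases of the hypoxia and EU libraries lay in the last and longest stretch, chr10:6011185-6012896.

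The 5′ edges of IL2RA coverage differed between lists. The outermost peak began 191 bases after the RefSeq start of the gene in hypoxia replicate 1, 92 bases after it in hypoxia replicate 2 and 42 bases after it in EU. The EU edge lies in the RefSeq promoter table of GRCh38.p14, which allows it to be shown. Below are the 30 bases at chr10:6062318-6062347, written 5′ to 3′ on the minus strand, with the 8 bases inside the EU peak in capitals.
IL2RA: cagcccaatacttaaagagagcAACTCCTG

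IL2RB encodes the beta chain, CD122, which is shared with the interleukin 15 receptor, and lies on the minus strand at chr22:37125838-37175118. It had 10 peaks in hypoxia replicate 1, 6 in hypoxia replicate 2, 8 in EU, 2 in normoxia replicate 1 and 0 in normoxia replicate 2, the most of the 4 genes in each library with any. Covered bases were 1709, 3505, 1658, 302 and 0 in the same order. Here too hypoxia replicate 2 had fewer and wider peaks, such as 1501 bases in 1 block at chr22:37126238-37127738, where hypoxia replicate 1 had 4 separate peaks. In hypoxia replicate 1, 1.27% of the 1258 genes had 10 or more peaks, and in EU 1.21% of the 2389 genes had 8 or more. By covered bases IL2RB stood 11th in hypoxia replicate 1, 12th in hypoxia replicate 2, 52nd in EU and 26th of 139 in normoxia replicate 1. Its best p stood 228th (7.8e-07), 322nd (3.1e-07), 825th (1.6e-06) and 70th (3.1e-06) in these lists.

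IL2RB blocks merged into 13 stretches with 3704 bases. The most 5′ of them began 25190 bases after the start of the RefSeq span, so the first part of that span held no peak. No exon annotation was used, so whether that part holds exons of the transcript present here was not tested. Hypoxia replicate 2 had a peak in all 13 stretches, hypoxia replicate 1 in 8, EU in 6 and normoxia replicate 1 in 3. As in IL2RA, every base covered in hypoxia replicate 1 was covered in hypoxia replicate 2 (1709 of 1709). The normoxia peaks were chr22:37126838-37126988, in the long stretch 12 near the 3′ end, and a peak of 2 blocks from chr22:37144159 to 37149928, in stretches 1 and 2. All 302 of their bases were covered in both hypoxia libraries, and 151 of them, those of the 3′ peak, in EU.

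EU and hypoxia replicate 1 covered different parts of the middle of IL2RB. EU had no peak in stretches 1 to 5, whereas hypoxia replicate 1 had peaks in stretches 1 to 4 and none in 5 to 9. An EU peak of 3 blocks from chr22:37135381 to 37137594 fell in stretches 6 to 8, covered in hypoxia replicate 2 but not in replicate 1. Of the 1658 bases of EU, 858 (51.7%) were covered in hypoxia replicate 1 and 1459 (88%) in hypoxia replicate 2. For IL2RA these shares of EU bases were 56.3% and 92.7%. There was 1 EU library, so its differences from the others have no replicate check.

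**Figure D4:**
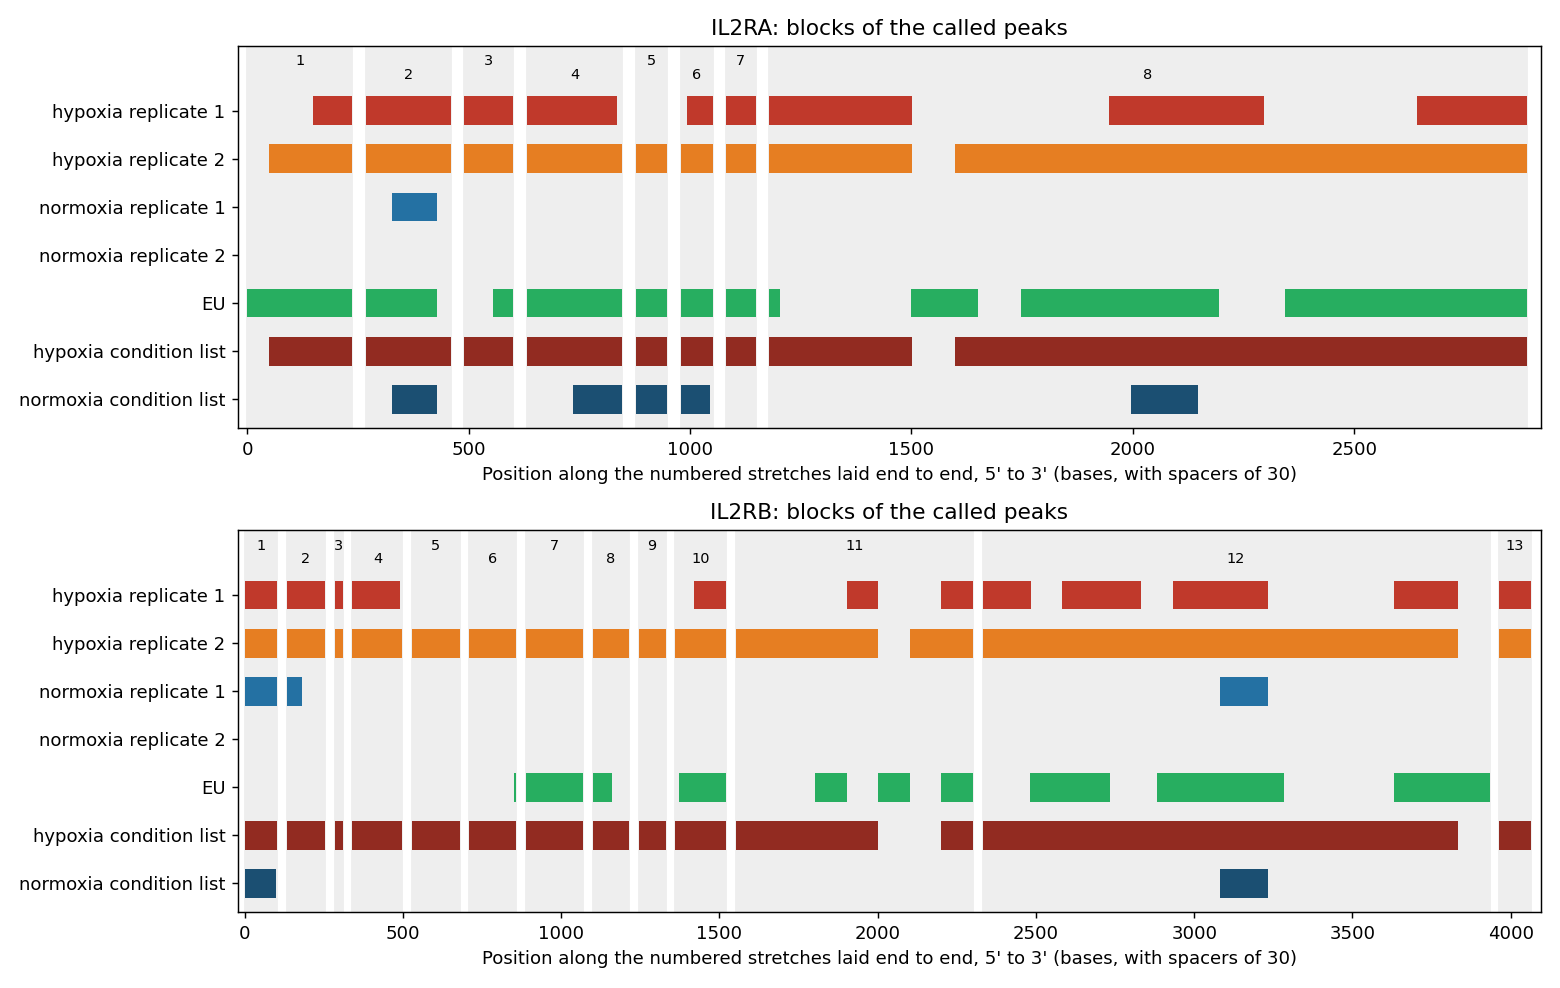
Blocks of the called IL2RA and IL2RB peaks in the 7 lists, with the numbered stretches (grey) laid end to end from 5′ to 3′. All bases that no list covered are left out, so the axis is not the whole transcript. Hypoxia replicate 2 covers 94.5% of the IL2RA and 94.6% of the IL2RB bases shown. Coverage is broken in hypoxia replicate 1 and EU, and limited to 100 and 302 bases in normoxia replicate 1.

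Overlap of the receptor peaks was counted between libraries. Of 17 peaks in hypoxia replicate 1, 15 (88.2%, exact 95% interval 63.6 to 98.5) overlapped a peak of hypoxia replicate 2, against 47.4% of all 2879. The 2 that did not were those of CTLA4. In reverse, 9 of 10 receptor peaks of hypoxia replicate 2 overlapped one of replicate 1, against 19.2% of all 6621, and the exception was the ICOS peak at chr2:203959781-203959881. All 13 EU peaks, of IL2RA and IL2RB, overlapped a peak of at least 1 hypoxia library (100%, exact 95% interval 75.3 to 100). By single library, 12 overlapped hypoxia replicate 1, 13 hypoxia replicate 2, 2 normoxia replicate 1 and 0 normoxia replicate 2. Over all 5044 EU peaks, 15.6% overlapped hypoxia replicate 1, 29.7% hypoxia replicate 2, 2.3% normoxia replicate 1 and 15.1% normoxia replicate 2. Peaks of 1 gene share a transcript and are not independent, the genes were chosen by their peaks in these libraries, and the intervals cover counting error only. Of the 17 peaks, 4 were of IL2RA and 10 of IL2RB. There hypoxia replicate 2 covered 94.5% and 94.6% of the bases of all lists, which made overlap nearly certain. Nothing is therefore read from the contrast between receptor peaks and all peaks.

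Neighbouring peaks of a receptor mostly carried 1 deposited p. All 10 IL2RB peaks of hypoxia replicate 1 had 7.8e-07, all 4 IL2RA peaks there 4.6e-07, and all 5 IL2RA peaks of EU 4.1e-09. Such ties over all peaks of a gene were seen for 165 of 719 genes with at least 2 peaks in hypoxia replicate 1 and 599 of 1304 in EU. IL2RB had 2 distinct p values in hypoxia replicate 2, normoxia replicate 1 and EU. Where peaks were tied, the p of a single receptor peak does not rank it against the others of its gene.

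The condition lists were set against the libraries for the same genes. In the hypoxia condition list, 2 of 2 IL2RA peaks and 5 of 6 IL2RB peaks were identical, block for block, to those of hypoxia replicate 2, and 0 and 3 to those of replicate 1. Over all 7669 peaks of that list the identical shares were 35.9% and 5.07%. The normoxia condition list had 3 IL2RA peaks with 499 bases, of which 100 were covered in normoxia replicate 1 and 0 in normoxia replicate 2. All 499 were covered in hypoxia replicate 2 and in EU. For IL2RB it had 2 peaks with 252 bases, all covered in normoxia replicate 1. By the condition lists, ICOS alone of the 4 was named under hypoxia only (as were 47.1% of the 3226 genes), and IL2RA and IL2RB had one in both (15.9%).

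IL2RG, the common gamma chain that completes the receptor, was hypoxia-only by the libraries. It had 2 peaks in hypoxia replicate 1, 4 in hypoxia replicate 2, 0 in both normoxia libraries and 5 in EU, with 741, 1383 and 1138 covered bases. All 3 chains of the interleukin 2 receptor thus had peaks in both hypoxia libraries (21.1% of the 3226 genes) and in EU (39.9%). The related receptors IL4R, IL7R, IL9R, IL15RA and IL21R had none in any list, nor did the 6 cytokines IL2, IL4, IL7, IL9, IL15 and IL21.

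Among genes that act below the interleukin 2 receptor, 3 of 9 had a peak in both hypoxia libraries and 2 of these were hypoxia-only. Over the 3226 genes these shares were 21.1% and 15.3%, and 4 of the 9 were among the 3226. With so few genes, nothing is read from these counts. JAK1, the kinase bound to the beta chain, had 8 and 8 peaks in the hypoxia libraries, 0 in normoxia and 7 in EU. SOCS1, a feedback inhibitor of JAK kinases, had 3 and 3, 0 in normoxia and 2 in EU. CISH, another inhibitor of this family, had 9 and 6, 7 in EU, 4 in normoxia replicate 1 and 0 in normoxia replicate 2. JAK3, the kinase of the gamma chain, had 8 peaks in hypoxia replicate 2 and 2 in EU, but 0 in hypoxia replicate 1. STAT5B had none in a library and 7 in the hypoxia condition list.

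Of the 5 receptors of the CD28 family, ICOS, CTLA4 and PDCD1 had a peak in a library. CD28 and BTLA had no peak in any list, and PDCD1, which encodes the checkpoint receptor PD-1, had 1 peak in hypoxia replicate 2, of 3 blocks and 394 bases, and none in another library. None of 8 ligands of this family or of BTLA, among them CD80, CD86, ICOSLG and CD274, had a peak in any list. Of 12 other costimulatory or inhibitory receptors, 6 had a peak in hypoxia replicate 2, 3 in hypoxia replicate 1 and 0 in both normoxia libraries and EU. Over the 3226 genes the shares were 66.7% and 39% in hypoxia replicates 2 and 1. They were 4.31% and 27.8% in normoxia replicates 1 and 2 and 39.9% in EU, and 15.3% were hypoxia-only. Of the 12, 6 were among the 3226. The 3 hypoxia-only receptors of the 12 were HAVCR2, which encodes the checkpoint receptor TIM-3 (3 and 4 peaks), CD96 (4 and 8) and CD40LG, the CD40 ligand of helper T cells (3 and 4). CD96 had no peak in the hypoxia condition list. ICOS, CTLA4 and these receptors had no EU peak, whereas the 3 interleukin 2 receptor chains had them; whether these groups differ was not tested.

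Genes that act with ICOS and CTLA4 inside the cell were looked up next. Of 8 genes of CD28 and ICOS signalling, 3 of them among the 3226, none had a peak in both hypoxia libraries (21.1% of the 3226). PIK3CD, the lymphocyte PI3 kinase subunit, had 12 in hypoxia replicate 2 alone, and PPP2CA, a phosphatase subunit, 4 there and 3 in EU. Of 5 genes tied to CTLA4 trafficking, DEF6 was hypoxia-only with 1 and 4 peaks, although the normoxia condition list had 1. ZC3H12A, which encodes the mRNA-cleaving protein Regnase-1, had 1 peak in hypoxia replicate 2, and ZFP36L2, a decay factor, 5 in EU. Of 3 transcription factors of regulatory T cells, which carry much CTLA4 and IL2RA, IKZF2 and IKZF4 had no peak in any list. FOXP3 had 2 peaks in hypoxia replicate 1 alone, as CTLA4 did, a pattern of 482 genes (14.9% of the 3226). Over these 10 lists with 70 genes, 8 of the 23 genes that the 4 libraries listed were hypoxia-only and 0 normoxia-only, against 15.3% and 0.155% of all 3226. Without the 4 receptors it was 7 of 19. The lists were written with earlier results of these data known, so this is no independent evidence of a direction. The hypoxia libraries listed 9 and 10 of the T and NK cell markers, the normoxia libraries 5 and 0, and their part in these counts was not tested.

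The genes with the most similar numbers of peaks were found by the summed absolute difference over the 7 lists. ICOS had a difference of 0 from ARPC1B, PSMC4 and a clone-named transcript, and no other gene matched it in full. CTLA4 had a difference of 0 from 65 genes, among them ENO3, SLAIN2 and AP3D1. IL2RA came nearest to SAMHD1 and ACTG1 (difference 5 each), and IL2RB to CISH and ETS1 (6 each). Next came genes tied at 6 for IL2RA, of which SELPLG ranked first by p in hypoxia replicate 2, and at 9 for IL2RB, with TPM4 first in the same way.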

How the data were processed

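MeRIP-seq peak lists of 5 pulled-down V16A libraries and 2 condition lists were used. The submitters' processing notes name STAR and hg38. The peak caller, its threshold, the annotation, the use of the inputs and the making of the condition lists are not stated in those notes, the labels or the files. The lists have 12 BED columns and no header. Column 5 was taken as the p-value the authors deposited for a peak, since it rises from 0 to at most 0.013 and no header names it. It served only to order a list's own peaks. No reads were used, so depth is unknown.

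Rows were selected by gene name (Python 3.11.15, pandas 2.3.3), starts were moved to count from 1, and blocks were merged per gene and list. Overlap meant at least 1 base of an exon block on the same strand. The functions were tested on simulated peaks. Gene spans and the promoter window are from RefSeq, GRCh38.p14; 3 of the 4 genes had such a window. Peak sequences were not analysed here. Strand use in calling is not given, so overlapping genes are uncertain.

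The members and lists were chosen with earlier results of these data known. Genes named besides the 4 were, by rule, listed genes called in both libraries of a condition or, for lists with none, the 2 in most lists, then CD28, PDCD1, IL2RG and the 3 nearest patterns per member. Others were named after their values were seen. Some genes of the prostate list count in its totals and are not reported here. The alternatives kept the 50% of peaks with the smallest p, kept peaks of at least the median 151 bases, shortened each library to 212 peaks, used the condition lists, left out each replicate, required 50% overlap, or used whole spans.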

Additional observations from a re-analysis of the deposited data

How the results depend on the processing

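Of 33 recomputed values, 18 left the value near that reported: within 1.5 times for a count, within the exact 95% interval for a share. The 1 hypoxia-only receptor, ICOS, became 2 (ICOS and IL2RA) when narrow peaks (under the median width) were dropped and 0 when each library was cut to 212 peaks, and ran from 1 to 3 without 1 replicate: ICOS and CTLA4 without hypoxia replicate 2, and ICOS, IL2RA and IL2RB without normoxia replicate 1. With each list cut to the 50% of peaks of smallest p it was again 1, but IL2RA in place of ICOS. That setting is among the 18, since the count and not the gene was compared. The 492 hypoxia-only genes became 173 with the smallest p, 14 with shortened libraries and 2077 by the condition lists, and 538 to 1749 without 1 replicate. The 8 of the pathway lists became 4, 0 and 16 in those settings, and 8 to 18 without 1 replicate. The condition-list counts take in all gene names of those lists, and 1520 of the 2077 were among the 3226. Without 1 replicate fewer libraries have to meet, so counts rise or stay by construction. The condition lists likewise ask for no agreement between replicates, and cut lists hold fewer peaks that can meet. Beyond this the cause was not tested. The share of all hypoxia replicate 1 peaks overlapped by replicate 2, 47.4%, was 42.1% with at least 50% of a peak's bases and 27.2% with the smallest p. The shares for receptor peaks stayed within their intervals, from 88.2% to 93.3% for hypoxia replicate 1 and from 84.6% to 100% for EU. These intervals, 63.6 to 98.5 and 75.3 to 100, are wide and treat peaks of 1 gene as independent. Staying within them is therefore a weak check, also where it counts among the 18. No paired analysis was possible because these results are presence calls and come from no test. Normoxia replicate 1 had 212 peaks, 3 of them of the receptors, and normoxia replicate 2 had 1563 and 0. Whether the length of a list bears on these calls was not tested.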
